A study of Mus musculus with 12 samples.

Results

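Gene expression in the hippocampus of vehicle-injected control mice was compared between 14 d and 8 h after the injection. The arrays were chosen by their titles, which mark 3 arrays as controls of the 8 h group and 3 as controls of the 14 d group, 6 of the 12 arrays of the study. All 12 titles also carry the word Input, which the labels do not explain. The study injected kainic acid (KA), which activates kainate receptors for glutamate and sets off status epilepticus, into the amygdala of mice (0.3 µg in 0.2 µl), gave lorazepam, a benzodiazepine that dampens seizures, 40 min later (6 mg/kg into the abdomen), and took the hippocampus of the injected side for Affymetrix MG-430 PM arrays. The controls received 0.2 µl of vehicle, phosphate-buffered saline, in the amygdala and had no seizures, and whether lorazepam was also given to them is not in the labels. Strain, age, sex and time of day are not given in the labels, and no group without an injection was analysed here. Surgery, vehicle, age, time of day and the handling of each set of arrays therefore cannot be told apart between the control groups. A separate time entry in the labels reads 8, 9 and 10 h for the 8 h controls and 11, 12 and 13 h for the KA arrays titled as 8 h. The titles were followed. Nothing in the labels ties each array to a separate animal, so the p-values reflect the spread among these samples, which may be technical.

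Glucocorticoids are steroid hormones that the adrenal gland releases under stress and over the day. They bind the glucocorticoid receptor, which moves to the nucleus and raises the transcription of target genes, and the hippocampus is rich in this receptor. Immediate early genes such as Arc and Egr1 are switched on quickly by neuronal activity and are part of the response of hippocampal neurons to experience. The unfolded protein response raises chaperones of the endoplasmic reticulum when that compartment is loaded with protein. The list of that name used here also holds genes of the integrated stress response.

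Of the gene lists described, glucocorticoid-induced genes held the most called genes, all of them higher at 8 h. On the side of the 14 d controls the calls were spread over many lists, and the largest differences were those of Arc and Egr1. The promoters of 5 called genes, from the glucocorticoid-induced, unfolded protein response and immediate early lists, are shown, from RefSeq (GRCm38.p6), each 250 bases before the start to 50 after it, read 5′ to 3′ on the strand of the gene. Capitals mark the matches to a motif, spacer included.
Sgk1 (chr10:21993640-21993939, plus strand): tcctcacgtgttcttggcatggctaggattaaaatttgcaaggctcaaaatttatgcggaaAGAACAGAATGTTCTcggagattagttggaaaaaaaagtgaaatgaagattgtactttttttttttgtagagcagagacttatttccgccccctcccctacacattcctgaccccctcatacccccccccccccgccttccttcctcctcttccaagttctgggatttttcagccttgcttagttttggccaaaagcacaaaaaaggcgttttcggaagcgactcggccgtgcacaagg
Mt1 (chr8:94178839-94179138, plus strand): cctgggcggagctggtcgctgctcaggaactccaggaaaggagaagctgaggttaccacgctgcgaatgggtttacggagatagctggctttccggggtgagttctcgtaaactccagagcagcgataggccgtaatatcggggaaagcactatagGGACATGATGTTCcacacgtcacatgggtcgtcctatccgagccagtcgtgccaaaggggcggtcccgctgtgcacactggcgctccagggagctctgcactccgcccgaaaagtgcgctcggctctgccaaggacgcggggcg
Pdia6 (chr12:17266339-17266638, plus strand): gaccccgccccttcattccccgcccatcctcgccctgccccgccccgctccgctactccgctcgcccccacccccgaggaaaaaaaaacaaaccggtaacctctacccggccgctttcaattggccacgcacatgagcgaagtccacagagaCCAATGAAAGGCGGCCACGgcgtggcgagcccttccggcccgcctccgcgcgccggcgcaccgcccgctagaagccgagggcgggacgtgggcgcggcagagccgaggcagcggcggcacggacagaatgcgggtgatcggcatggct
Creld2 (chr15:88819396-88819695, plus strand): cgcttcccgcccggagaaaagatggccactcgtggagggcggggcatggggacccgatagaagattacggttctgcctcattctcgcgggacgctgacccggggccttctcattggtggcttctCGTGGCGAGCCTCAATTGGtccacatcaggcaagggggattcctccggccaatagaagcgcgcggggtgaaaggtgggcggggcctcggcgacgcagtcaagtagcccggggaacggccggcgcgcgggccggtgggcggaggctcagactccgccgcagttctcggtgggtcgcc
Nr4a2 (chr2:57123954-57124253, minus strand): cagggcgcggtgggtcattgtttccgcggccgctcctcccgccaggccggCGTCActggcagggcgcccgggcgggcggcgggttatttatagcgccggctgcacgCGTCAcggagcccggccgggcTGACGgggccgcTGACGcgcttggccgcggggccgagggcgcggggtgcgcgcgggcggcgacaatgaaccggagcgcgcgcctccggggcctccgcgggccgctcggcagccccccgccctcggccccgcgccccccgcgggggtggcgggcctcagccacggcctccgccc
Both strands were searched, and a match is a description of the letters only. The full palindrome of the glucocorticoid response element, AGAACA and TGTTCT with 3 bases between them, lies 189 bases before the start in Sgk1 (this is 1 of 6 promoters listed for the gene) and is held by 3 of 32851 promoters (0.00913%). Since a gene can have several promoters, lists are set beside the share of all 27025 genes with at least 1 promoter that holds the motif. A looser palindrome that includes it, GNACA and TGTNC with 3 bases between them, lies 94 bases before the start in Mt1. It was found in 5 of the 23 glucocorticoid-induced genes tested that had a promoter in the table (Fam107a, Map3k6, Mt1, Sgk1 and Txnip), against 0.537% of all genes (156 promoters, 0.475%). The endoplasmic reticulum stress response element, CCAAT and CCACG with 9 bases between them, lies 98 bases before the start in Pdia6 and 126 in Creld2. It was found in 6 of 19 unfolded protein response genes with a promoter (Calr, Creld2, Dnajc3, Hsp90b1, Hspa5 and Pdia6), against 0.137% of all genes (39 promoters, 0.119%). The half-site of the cAMP response element, TGACG, occurs 4 times in Nr4a2, at 200, 144, 123 and 111 bases before the start. It is common, in 6837 promoters (20.8%) and 23.0% of all genes, and was found in 14 of 18 immediate early, 11 of 23 glucocorticoid-induced and 9 of 19 unfolded protein response genes with a promoter. The full cAMP response element, which is TGACG followed by TCA, was found in 2 of the 18, 2 of the 23 and 0 of the 19, against 2.03% of all genes.

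The values are log2 intensities, and each difference is 14 d minus 8 h, so that a negative value is a higher level at 8 h. Within a control group, pairs of arrays had an r over probe sets of 0.995 to 0.997, and between the control groups of 0.992 to 0.996. The mean of the GC-rich background probe sets of an array was 4.47, 4.40 and 4.16 (log2) in the 8 h controls and 4.43, 4.40 and 4.18 in the 14 d controls, lower on the third array of both. Markers of the hippocampus were present: 9 of 9 dentate granule cell, 6 of 6 CA1 and 6 of 6 CA3 markers tested (of 8 CA3 markers on the array) lay above background on all 6 arrays. So did 8 of 9 choroid plexus markers, a tissue that borders the hippocampus, with Ttr (transthyretin) at a mean of 11.97. The summed choroid plexus signal was 4255 to 5202 (linear intensity) at 8 h and 3587 to 5791 at 14 d.

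Single arrays stood apart in some gene groups. On 8 h replicate 1, 11 genes were at least 2-fold above each of the other 5 arrays, and no gene was so on any of the others. These were Cxcl10, Rsad2, Trim30d, Icam1, Rtp4, Gbp2, Ifit3, Gbp7, Ifitm3, Lcn2 and Igtp, genes of interferon responses and inflammation, chosen after their values were seen. Cxcl10, a chemokine induced by interferons, read 7.28, 4.75 and 4.23 at 8 h and 4.17, 4.08 and 4.06 at 14 d. Icam1, an adhesion molecule of activated endothelium, read 6.90, 5.06 and 4.96 at 8 h and 4.84, 4.48 and 4.80 at 14 d. Ifit3, an antiviral protein, read 8.57, 7.29 and 7.14 at 8 h and 6.88, 6.90 and 7.08 at 14 d. For all 11 the first 8 h array was the highest. In Cxcl10, Icam1 and Ifit3 the other 2 8 h arrays lay much closer to the 14 d arrays than to the first. The groups still did not overlap in these genes. In Cxcl10, however, every 14 d array read below its own background (4.43, 4.40 and 4.18), so its gap rests in part on background signal. In Lcn2 the second 8 h array lay about as far from the first as from the 14 d arrays. The first 8 h array was the highest of the 6 arrays in 9 of 12 interferon and antigen presentation genes (75.0%), 8 of 14 cytokine and chemokine genes (57.1%) and 10 of 18 reactive astrocyte genes (55.6%), against 14.0% of all genes tested. Of the 14 d arrays, replicate 1 was the highest of the 6 in 9 of 9 choroid plexus and 7 of 10 meningeal markers (against 19.9% of all genes). Replicate 3 of that group lay lowest in the choroid plexus markers, at a median of 0.50 below the mean of the 6 arrays. None of the 11 passed the test between the control groups. Of 7 blood leukocyte markers on the array, 1 passed the filter on low values, S100a9. Its linear level was 38.1 to 45.5 at 8 h and 37.0 to 39.7 at 14 d, above background on all 6 arrays.

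**Figure D1:**
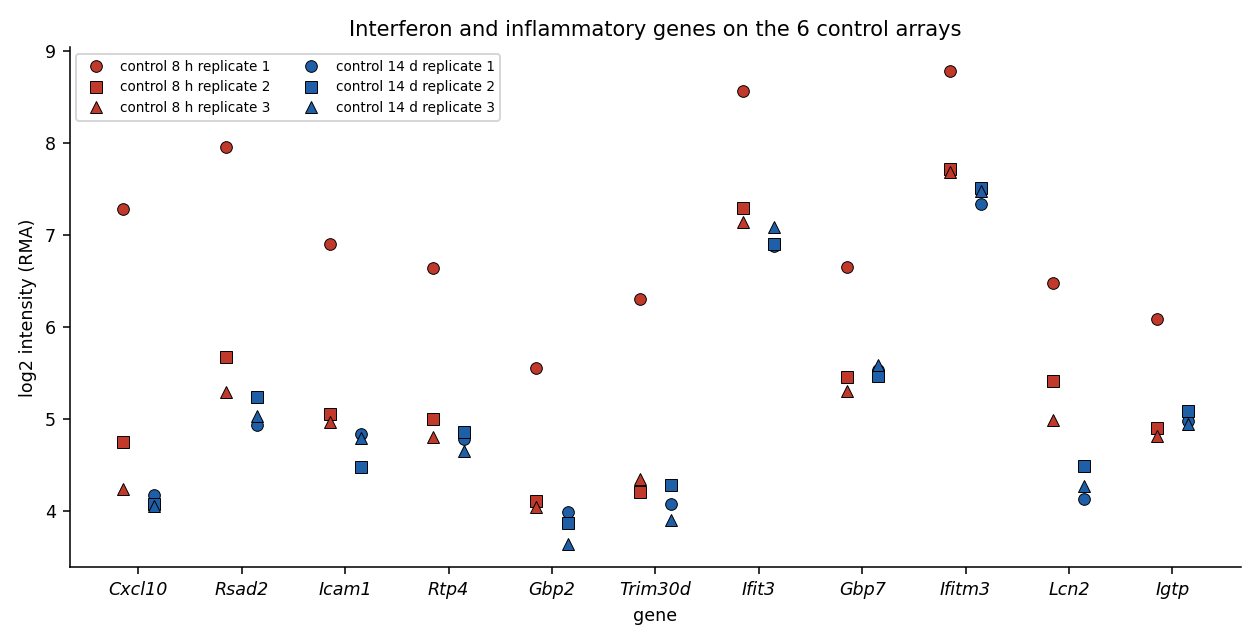
Log2 intensity of the 11 genes that were at least 2-fold higher on 1 control array than on each of the others, by gene, with 1 point per array (red, 8 h controls; blue, 14 d controls). The circle of 8 h replicate 1 lies above the other 5 points for every gene, at 7.28 for Cxcl10 against 4.06 to 4.75 on the others.

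Of 13853 genes tested, 249 differed between the control groups at an adjusted p under 0.05 (1.8%), of which 94 were higher at 8 h (0.679%) and 155 higher at 14 d (1.12%). The shares of 0.679% and 1.12% are those to set beside the counts of called genes given for each list. Most differences were small. The median size was 0.58 (log2) among the genes higher at 8 h and 0.47 among those higher at 14 d, and 5 (0.0361% of genes tested) and 4 genes (0.0289%), respectively, were called and at least 2-fold apart. In 3475 genes the 2 groups did not overlap (25.1%), and all 249 called genes were among them. An unadjusted p under 0.05 was reached by 2044 genes (14.8%), the share to set beside the counts at that threshold given for each list. The median difference over all genes was 0.02. The count was 180 without control 8 h replicate 3 and between 86 and 127 without any other 1 of the control arrays: 86 without 8 h replicate 1, 127 without 8 h replicate 2, and 87, 92 and 105 without 14 d replicates 1, 2 and 3. With cyclic loess 185 genes were higher at 8 h and 188 at 14 d, and with quantile normalization 172 and 201, a more even split.

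Glucocorticoid-induced genes were higher at 8 h. Of 26 tested, 12 were called higher at 8 h and 0 higher at 14 d, against 0.679% and 1.12% of all genes. The groups did not overlap in 23, against 25.1% of all genes. The first 8 h array was the highest of the 6 in 13 of the 26 (against 14.0% of all genes). The median difference of the 26 was -0.55, against 0.02 over all genes. Their summed linear signal was 8868 to 10128 on the 8 h arrays and 5710 to 6210 on the 14 d arrays.

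Cdkn1a (chromosome 17), the cell cycle inhibitor p21, which is also a target of p53, read 9.46, 8.92 and 9.21 at 8 h and 6.50, 6.72 and 6.50 at 14 d. All 8 h arrays were over 2 log2 units above all 14 d arrays, the largest difference of all genes tested. The difference was -2.62 ± 0.14 (log2, SE, n = 3 arrays per group, limma adjusted p = 1.44e-07), a 6.16-fold higher level at 8 h, and the other probe set of the gene differed by -1.74. Sgk1 (chromosome 10), a kinase that controls ion channels and transporters, read 9.74, 9.36 and 9.63 at 8 h and 7.93, 8.03 and 8.04 at 14 d, so that the groups lay far apart. It was 2.97-fold higher at 8 h (-1.57 ± 0.19, limma adjusted p = 0.000846). Fkbp5 (chromosome 17), a co-chaperone that dampens the glucocorticoid receptor and is itself induced by it, read 8.33, 8.37 and 8.50 at 8 h and 7.32, 7.50 and 7.66 at 14 d, with no overlap. The difference was -0.91 ± 0.12 (1.87-fold, limma adjusted p = 0.000977). Tsc22d3, known as Gilz, an anti-inflammatory mediator of glucocorticoids, read 7.32, 7.48 and 7.57 at 8 h and 6.79, 6.74 and 6.76 at 14 d and was 1.61-fold higher at 8 h (-0.69 ± 0.10, adjusted p = 0.0022). Its 14 d arrays lay close together, below every 8 h array.

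The other called members were moderate in size. Sult1a1, a sulfotransferase, differed by -0.79, Nfkbia, the inhibitor of NF-kB, by -0.75, Htra1, a serine protease, by -0.73 and Map3k6, a stress kinase, by -0.64. Fam107a, an actin-binding protein of astrocytes and neurons, differed by -0.62, Plin4, a lipid droplet protein, by -0.57 and Hif3a, a regulator of the hypoxia response, by -0.40. Mt1, a metallothionein that binds zinc, read 11.50, 11.33 and 11.32 at 8 h and 10.73, 10.80 and 10.77 at 14 d and differed by -0.62, with no overlap. Its other probe set differed by -0.36, and with probe sets of the x_at and s_at kinds left out Mt1 was not called (adjusted p = 0.0765). Fam107a and Map3k6 lost the call without 8 h replicate 1 or 14 d replicate 1 (adjusted p up to 0.0551 and 0.0636). Nfkbia lost it without those and without 14 d replicate 2 (up to 0.121), and Htra1 also without 8 h replicate 3 (up to 0.0887). Hif3a lost it without any 1 of the control arrays but 8 h replicate 1 (up to 0.143).

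Members that missed the threshold included Ddit4, an inhibitor of mTOR signalling (-0.67, adjusted p = 0.0504), Errfi1, an inhibitor of EGF receptor signalling (-0.53, adjusted p = 0.133), Klf9 (-0.32, adjusted p = 0.0968) and Zbtb16 (-0.30, adjusted p = 0.238), both transcription factors. Lcn2, a secreted protein of acute inflammation that is also on the list, read 6.48, 5.42 and 4.98 at 8 h and 4.13, 4.49 and 4.27 at 14 d, and its difference of -1.33 was not called (adjusted p = 0.335). The first 8 h array was its highest. The 4 members with a positive difference were Bcl6 (0.19), Dusp1 (0.18), Cebpb (0.13) and Per1 (0.11), none called. The sign of Bcl6 turned to -0.05 with the mean of its probe sets.

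The count of glucocorticoid-induced genes called was 12 without the third array of each group and 7 to 11 without any 1 of the control arrays, lowest without control 14 d replicate 1 and 8 without control 8 h replicate 1. It was 8 at an adjusted p under 0.01.

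**Figure D2:**
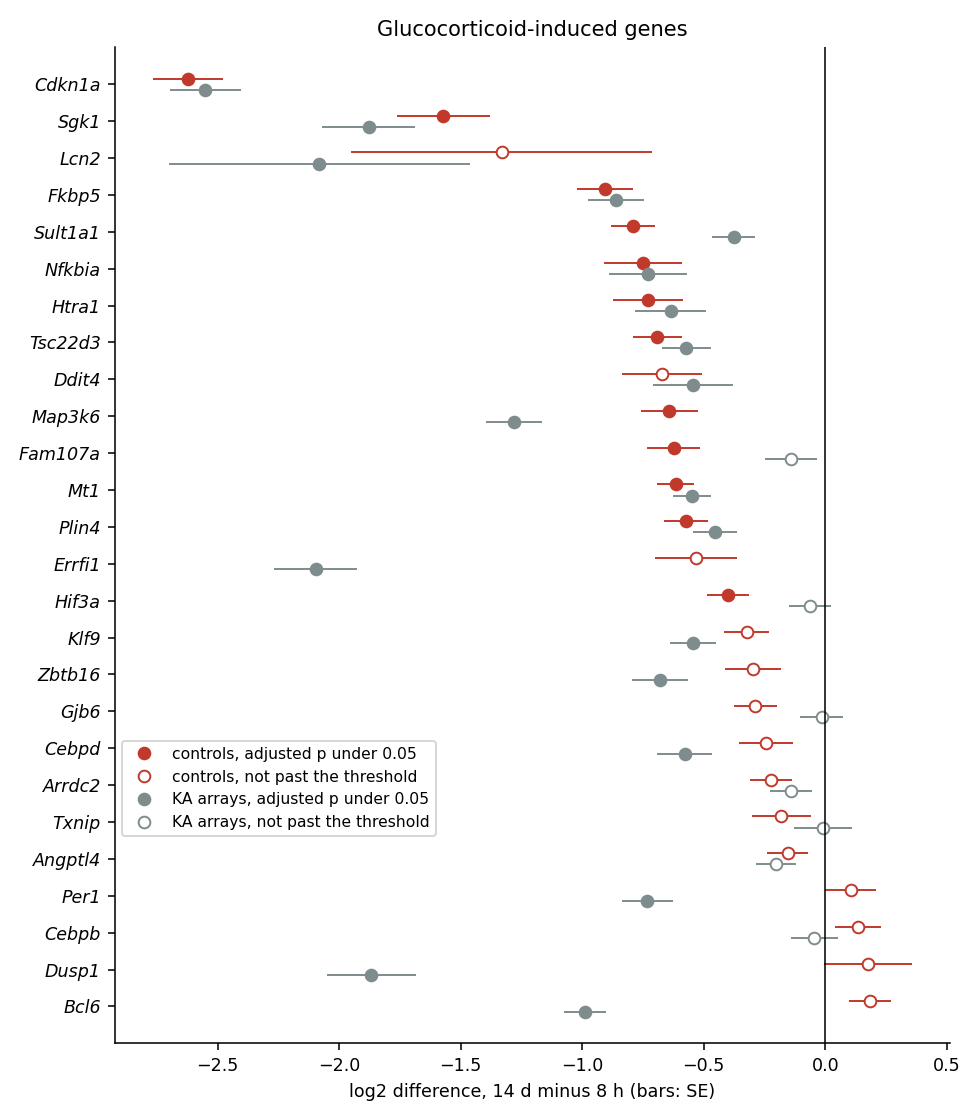
Log2 difference, 14 d minus 8 h, of the 26 glucocorticoid-induced genes in the controls (red) and in the KA arrays (grey), with the SE as bars and filled points for genes called. In the controls 22 of the 26 lie below 0, 12 of them filled, from Cdkn1a at -2.62 to Hif3a at -0.40.

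Genes of the corticosteroid receptors, their chaperones and the stress axis lay mostly toward 14 d. Of 10 tested, 0 were called higher at 8 h and 1 higher at 14 d, with 3 at an unadjusted p under 0.05. The groups did not overlap in 7 of the 10, against 25.1% of all genes. Of the 10 differences, 7 lay above 0 and 3 below, with a median of 0.15. The summed signal was 1931 to 2047 at 8 h and 2155 to 2188 at 14 d. Nr3c1, the glucocorticoid receptor, read 5.78, 6.27 and 6.24 at 8 h and 6.46, 6.52 and 6.42 at 14 d (0.37, adjusted p = 0.239). Its first 8 h array was the lowest, and the groups did not overlap. The other probe sets of Nr3c1 differed by 0.10, 0.53, 0.45 and 0.54. Nr3c2, the mineralocorticoid receptor, differed by 0.17 (adjusted p = 0.601). The called member was Stip1, a co-chaperone of HSP90 (0.40, adjusted p = 0.0402), and it lost the call without any 1 of the 6 control arrays (adjusted p up to 0.2) and with cyclic loess or quantile normalization.

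Clock genes, which cycle over the day, lay on both sides. Of 20 tested, 0 were called higher at 8 h and 1 higher at 14 d, with 8 at an unadjusted p under 0.05, against 14.8% of all genes. The groups did not overlap in 12 of the 20, against 25.1% of all genes, and 10 differences lay above 0 and 10 below. Per2, a repressor in the clock, read 6.03, 6.11 and 5.89 at 8 h and 6.43, 6.62 and 6.62 at 14 d (0.54, adjusted p = 0.0478), with no overlap between the groups. That call ended without any 1 of the control arrays (adjusted p up to 0.254 over all settings) and without the filter on low values. It also ended with median centring and with the mean of its probe sets, the setting that gave 0.254. Ciart, another clock repressor, differed by -0.45 (adjusted p = 0.0536), Per3 by -0.19, Dbp, an output transcription factor of the clock, by -0.06, Nr1d2 by -0.03 and the activator Arntl by -0.03, none of them called. The groups overlapped in Per3, Dbp, Nr1d2 and Arntl, and the last 3 changed sign when single arrays were left out. Nr1d1 was not analysed here.

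Cirbp, a cold-inducible RNA-binding protein, was higher at 8 h. It read 7.30, 7.16 and 7.29 at 8 h and 6.37, 6.36 and 6.48 at 14 d, so that all 8 h arrays lay above all 14 d arrays. The difference was -0.85 ± 0.10 (log2, SE, n = 3 per group, limma adjusted p = 0.000398). Of 15 heat shock and temperature-responsive genes, Cirbp was the 1 called higher at 8 h, and Chordc1, a co-chaperone, the 1 called higher at 14 d (0.51, adjusted p = 0.0177). Chordc1 lost the call without 8 h replicate 1 or 2 or 14 d replicate 2 or 3 (adjusted p up to 0.0955). Of 10 p53 targets, Cdkn1a and Trp53inp1, a mediator of cell death and autophagy, were called higher at 8 h and 0 higher at 14 d. Trp53inp1 differed by -0.63 (adjusted p = 0.0201), and lost the call without 8 h replicate 1 or 14 d replicate 1 or 2 (up to 0.122). Of 13 hypoxia-induced genes, 1 was called, Slc2a1, the glucose transporter of the blood-brain barrier, which was higher at 8 h (-0.63, adjusted p = 0.00718).

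Other genes were among the largest differences on the 8 h side. Smim3, a small membrane protein, read 6.74, 6.24 and 6.54 at 8 h and 4.53, 5.48 and 5.17 at 14 d (-1.44 ± 0.21, 2.72-fold). Sgk3, a kinase related to Sgk1, read 6.73, 6.25 and 6.71 at 8 h and 5.48, 5.58 and 5.17 at 14 d (-1.15 ± 0.15, 2.22-fold). In both, the lowest 8 h array lay above the highest 14 d array. The other probe sets of Sgk3 differed by -0.40 and -0.83. Rhou, a small GTPase (-0.88), Rnf115, a ubiquitin ligase (-0.86), Prkd1, protein kinase D (-0.79), and Rhoj, a GTPase of endothelial cells (-0.75), followed. Prkd1 and Rhoj were not called without control 8 h replicate 1 or without 14 d replicate 1 (adjusted p up to 0.0974 and 0.0678), and Prkd1 also not when x_at and s_at probe sets were dropped. Named after their values were seen were Spsb1, an adaptor of ubiquitin ligases (-0.66), Sdc4, the proteoglycan syndecan-4 (-0.60), and Dio2, the enzyme of astrocytes that activates thyroid hormone (-0.67). Dio2 missed the threshold with the mean of its probe sets (adjusted p = 0.0572).

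Immediate early genes were led by a few genes higher at 14 d. Of 22 tested, 3 were called higher at 14 d and 0 higher at 8 h, against 1.12% and 0.679% of all genes. The median was 0.12, against 0.02 over all genes. Arc (chromosome 15), which encodes a synaptic protein that removes AMPA receptors, read 5.76, 5.50 and 6.04 at 8 h and 7.47, 7.69 and 7.62 at 14 d. Every 14 d array lay more than 1 log2 unit above every 8 h array. The difference was 1.82 ± 0.24, a 3.54-fold higher level at 14 d (limma adjusted p = 0.000996). Egr1, a zinc finger transcription factor, read 7.55, 7.53 and 7.48 at 8 h and 8.90, 9.32 and 9.21 at 14 d, again with no overlap, and was 3.08-fold higher at 14 d (1.62 ± 0.23, limma adjusted p = 0.00203). Nr4a2, a nuclear receptor induced by activity, read 7.55, 7.68 and 7.76 at 8 h and 8.52, 8.64 and 8.32 at 14 d and was 1.78-fold higher (0.83 ± 0.15, limma adjusted p = 0.0112). It missed the threshold without 8 h replicate 1 or 14 d replicate 1 or 2 (up to 0.067), and its 4 other probe sets differed by 1.12, 0.68, -0.06 and 0.11.

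The remaining 19 immediate early genes were not called. Nr4a1 read 4.80, 4.996 and 4.98 at 8 h and 5.39, 5.70 and 5.76 at 14 d (0.69, adjusted p = 0.193) and Nr4a3 read 6.91, 7.26 and 7.15 at 8 h and 7.60, 7.79 and 7.93 at 14 d (0.67, adjusted p = 0.0914), and neither overlapped. Fos, a subunit of AP-1, read 4.83, 4.34 and 4.07 at 8 h and 4.81, 5.39 and 5.08 at 14 d, with 1 of the 8 h arrays above background, and overlapped between the groups (0.67, adjusted p = 0.61). Npas4, a neuronal activity factor, was at or below background on all 6 arrays. Of 17 delayed activity-induced genes, Pcsk1, a prohormone convertase, was the 1 called, higher at 14 d (0.51, adjusted p = 0.0133), though not without 8 h replicate 1 or 14 d replicate 1 or 3 (up to 0.0879). Bdnf, the neurotrophin, read 6.11, 5.96 and 5.87 at 8 h and 5.87, 6.07 and 6.08 at 14 d and overlapped between the groups (0.02, adjusted p = 0.98), while its other probe set, of nearly the same brightness, differed by 0.43. Spry4, an inhibitor of growth factor signalling, read 7.53, 7.40 and 7.59 at 8 h and 8.39, 8.35 and 8.29 at 14 d and was 1.79-fold higher at 14 d (0.84, adjusted p = 0.000996), while its other probe sets differed by 0.25, 0.36 and -0.02.

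**Figure D3:**
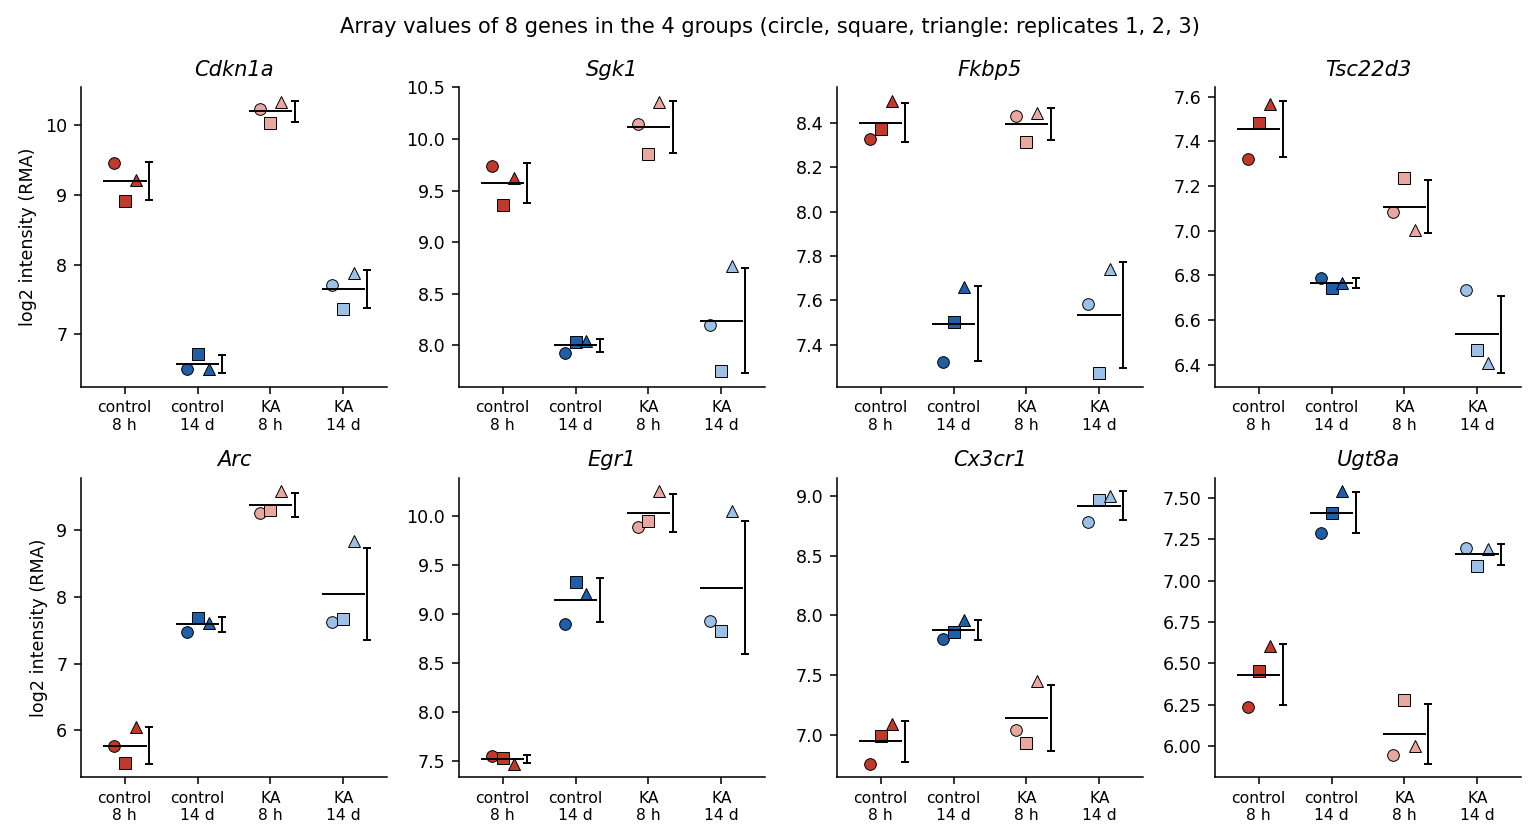
Log2 intensity of 8 genes, each with 3 arrays in each of the 4 groups, the mean as a line and the SD as a bar. In the controls Cdkn1a, Sgk1, Fkbp5 and Tsc22d3 are higher at 8 h, and Arc, Egr1, Cx3cr1 and Ugt8a higher at 14 d, with no overlap. In the KA arrays Arc is higher at 8 h, from 9.26 to 9.59, than at 14 d, from 7.63 to 8.84.

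Of 21 genes of the unfolded protein and integrated stress response tested, 4 were called higher at 14 d and 0 higher at 8 h. Of all genes, 1.12% and 0.679% were. The median was 0.19, and 17 of the 21 differences lay above 0, beside 7793 of the 13853 genes tested. Creld2, a secreted chaperone-like protein, read 7.37, 7.53 and 7.51 at 8 h and 8.20, 8.36 and 8.10 at 14 d (0.75, adjusted p = 0.0134). Pdia6, a protein disulfide isomerase, read 7.001, 7.13 and 7.35 at 8 h and 7.70, 7.82 and 7.78 at 14 d (0.61, adjusted p = 0.00664). In both, every 14 d array lay above every 8 h array. Manf, a protein of the endoplasmic reticulum with neurotrophic activity, differed by 0.64 (adjusted p = 0.0256) and Sdf2l1, a chaperone cofactor, by 0.61 (adjusted p = 0.0181). Xbp1, the transcription factor of the response, read 6.18, 6.33 and 6.27 at 8 h and 6.71, 7.09 and 6.92 at 14 d and just missed the threshold (0.65, adjusted p = 0.053). Hspa5, the chief chaperone BiP, read 6.96, 6.69 and 7.07 at 8 h and 7.40, 7.55 and 7.10 at 14 d (0.45, adjusted p = 0.256). The second 14 d array was the highest of the 6 in 13 of the 21 (61.9%, against 12.6% of all genes). Without any 1 of the control arrays the count of 4 fell to between 1 and 3: it was 1 without 8 h replicate 1 and without 14 d replicate 1 or 2, and 2 without 8 h replicate 2. Pdia6 kept its call in each of these fits. Serpinh1, a collagen chaperone that is also of the endoplasmic reticulum, was among the largest differences at 14 d, at 5.46, 5.38 and 5.31 at 8 h and 6.55, 6.53 and 6.27 at 14 d (2.09-fold, 1.07 ± 0.11, limma adjusted p = 0.000337). Its second, dim probe set differed by 0.11.

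Microglia markers were higher at 14 d in part. In bulk tissue, fewer cells of a type and less RNA per cell cannot be told apart. Of 13 markers of homeostatic microglia, 2 were called higher at 14 d (against 1.12% of all genes) and 0 at 8 h. Their median was 0.19, and their summed signal was 1334 to 1436 at 8 h and 1675 to 1811 at 14 d. Cx3cr1, the fractalkine receptor, read 6.76, 6.98 and 7.09 at 8 h and 7.81, 7.86 and 7.96 at 14 d and was 1.91-fold higher at 14 d (0.93 ± 0.12, limma adjusted p = 0.00138). P2ry12, an ADP receptor of surveying microglia, read 6.69, 6.70 and 7.10 at 8 h and 7.23, 7.42 and 7.57 at 14 d (0.58, adjusted p = 0.0291). The groups did not overlap in either, but P2ry12 was not called without 8 h replicate 1 or 2 or 14 d replicate 2 or 3 (up to 0.171). Fcrls (0.39, adjusted p = 0.051) and Aif1, which encodes Iba1 (0.42, adjusted p = 0.0867), missed the threshold. Of 16 genes of activated microglia and phagocytes, 0 were called in limma, with 5 at an unadjusted p under 0.05, among them Ctsz, a cathepsin (0.35, adjusted p = 0.0504), and Cd68, a lysosomal protein (0.30, adjusted p = 0.214). Of the receptors that bind apoptotic cells through Gas6, Mertk was higher at 8 h (-0.60, adjusted p = 0.0112) and Tyro3 higher at 14 d (0.45, adjusted p = 0.017). This pair was chosen after its values were seen. Mertk lost the call without 14 d replicate 1 (0.064), and Tyro3 without any 1 control array but 8 h replicate 3 (up to 0.0914).

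Of 13 oligodendrocyte and myelin markers, 1 was called, Ugt8a, the enzyme that makes the myelin lipid galactosylceramide. It read 6.24, 6.46 and 6.60 at 8 h and 7.29, 7.41 and 7.54 at 14 d and was 1.97-fold higher at 14 d (0.98 ± 0.11, limma adjusted p = 0.000398), with no overlap, and its other probe set differed by 0.49. A further 7 of the 13 reached an unadjusted p under 0.05, as 14.8% of all genes did, without passing the adjusted test. Of the 13 differences, 10 lay above 0 and 3 below, the lowest -0.32 (Cldn11), with a median of 0.23. The summed signal overlapped, at 6508 to 7304 at 8 h and 6776 to 7601 at 14 d. Sox10, the transcription factor of the oligodendrocyte lineage, was the 1 called of 6 precursor markers (0.50, adjusted p = 0.0135), though not without 8 h replicate 1 or 2 or 14 d replicate 2 or 3 (up to 0.0666). Fabp7, a fatty acid binding protein of astrocytes and radial glia, read 6.24, 6.44 and 6.61 at 8 h and 7.48, 7.59 and 7.67 at 14 d and was 2.22-fold higher at 14 d (1.15 ± 0.12, limma adjusted p = 0.000337). It was the 1 called of 9 fasting and lipid oxidation genes.

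Of 11 astrocyte markers, 0 were called in limma, with 6 at an unadjusted p under 0.05, against 14.8% of all genes. The differences lay on both sides, 6 above 0 and 5 below, from -0.33 (Aldh1l1) to 0.41, with a median of 0.04. Aqp4, the water channel of astrocyte endfeet, read 8.90, 8.83 and 8.94 at 8 h and 9.17, 9.25 and 9.47 at 14 d (0.41, adjusted p = 0.0699). Of 18 reactive astrocyte genes, S100a10 was the 1 called, higher at 14 d (0.46, adjusted p = 0.0146), and lost the call without 8 h replicate 1 or any 1 of the 14 d arrays (up to 0.0898). Gfap, the intermediate filament of astrocytes, read 10.36, 10.01 and 10.12 at 8 h and 9.93, 9.89 and 10.14 at 14 d and overlapped (-0.18, adjusted p = 0.592). Serpina3n, a protease inhibitor of reactive astrocytes, read 7.33, 7.05 and 7.02 at 8 h and 6.32, 6.44 and 7.13 at 14 d (-0.50, adjusted p = 0.152).

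Vessel genes differed in both directions. Of 16 endothelial and mural markers, 2 were called higher at 8 h and 1 at 14 d, against 0.679% and 1.12% of all genes. The summed signal was 1458 to 1532 at 8 h and 1605 to 1627 at 14 d. Mfsd2a, the lipid transporter of the blood-brain barrier, read 6.19, 6.22 and 6.26 at 8 h and 5.62, 5.70 and 5.78 at 14 d (-0.52, adjusted p = 0.00488), and Ly6c1, a surface protein of brain endothelium, read 7.28, 7.23 and 7.27 at 8 h and 6.64, 6.77 and 6.77 at 14 d (-0.54, adjusted p = 0.00527). Both were higher on all 8 h arrays, and neither lost its call in any alternative. Vtn, vitronectin, made by pericytes, was higher at 14 d (0.45, adjusted p = 0.0146), though not without 8 h replicate 1 or any 1 of the 14 d arrays (up to 0.0907). Tie1, an endothelial receptor kinase, was at least 1.81-fold higher at 14 d, counted from the background where an 8 h array lay at or below it (0.89 ± 0.13 as fitted, limma adjusted p = 0.00203). It lay above background on 1 of the 3 8 h arrays. Slco1c1, a thyroid hormone transporter (0.72, adjusted p = 0.0164), and Slc22a8, an organic anion transporter of the barrier (0.69, adjusted p = 0.0131), both chosen after their values were seen, were higher at 14 d. Slco1c1 lost the call without any 1 control array but 14 d replicate 2 (up to 0.0835), and Slc22a8 without 8 h replicate 1, without 14 d replicate 1 and with the mean of its probe sets (0.0904).

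Neuronal markers lay on both sides. Of 9 dentate granule cell markers, 2 were called higher at 8 h and 0 at 14 d, against 0.679% and 1.12% of all genes. Dsp, desmoplakin, read 9.30, 8.84 and 9.20 at 8 h and 7.86, 8.14 and 8.37 at 14 d and was 1.99-fold higher at 8 h (-0.99 ± 0.17, limma adjusted p = 0.00718), and Pdzd2 differed by -0.62 (adjusted p = 0.015). Pdzd2 lost the call without 8 h replicate 1 or 14 d replicate 1 or 2 (up to 0.0879), and with the mean of its probe sets. The summed dentate signal was 2011 to 2270 at 8 h and 1646 to 1957 at 14 d, and it includes Dsp, the brightest of the 9. Of the 9 differences, 4 lay above 0 and 5 below, with a median of -0.07. The sums of CA1 markers (1321 to 1617 at 8 h and 1636 to 1696 at 14 d) and of interneuron markers (5619 to 6299 and 6452 to 6593) lay the other way, with no overlap between the groups. The median difference of the CA1 markers was 0.13, with 4 above 0 and 2 below. That of the interneuron markers was 0.02, as over all genes, with 8 above 0 and 7 below. The brightest interneuron marker was Cnr1 (0.24). No marker of CA1 (6 tested, 1 at an unadjusted p under 0.05), CA3 (6, 0) or interneurons (15, 3) was called in limma. Of markers of tissue outside the hippocampus, Ntng1 of the thalamus was called (0.47, adjusted p = 0.0402), but not without 8 h replicate 1 or 2 or any 1 of the 14 d arrays (up to 0.225). Nor was Ntng1 called with median centring or with the mean of its probe sets. The summed thalamus signal was 497 to 536 at 8 h and 553 to 583 at 14 d. The part of dissection in these results was not tested. No cortex and amygdala (7 tested, 1 at an unadjusted p under 0.05), striatum (4, 0), choroid plexus (9, 0), meningeal (10, 1) or erythrocyte (3, 0) marker was called.

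The largest remaining differences on the 14 d side were those of Zmym1, a zinc finger protein (0.81 as fitted, at least 1.69-fold, with 2 of 3 8 h arrays above background), Sox2ot, a long noncoding RNA that overlaps Sox2 (0.76), and Synj2, a lipid phosphatase of vesicle traffic (0.75). Named after their values were seen were Fgfr2, a growth factor receptor (0.65), and Litaf, a lysosomal membrane protein (0.64). All 5 kept their call in every alternative fitted.

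Several gene groups held no called gene in limma. Beside the 14.8% of all genes at an unadjusted p under 0.05, these were neuropeptides (13 tested, 1 at that threshold), cholesterol synthesis and uptake (12, 6), cytokines and endothelial activation (14, 2), interferon and antigen presentation (12, 5), extracellular matrix remodelling (16, 2), GABA-A receptors (8, 3), neurogenesis (10, 2), cell cycle (15, 1), the mitochondrial respiratory chain (20, 2), ribosomal proteins (18, 2) and reference genes (9, 1). Il1b, a cytokine of acute inflammation, read 5.54, 5.64 and 5.47 at 8 h and 5.63, 5.39 and 5.27 at 14 d and overlapped (-0.12, adjusted p = 0.737). Npy, a peptide of interneurons, read 8.68, 8.68 and 8.54 at 8 h and 8.92, 9.01 and 9.06 at 14 d (0.36, adjusted p = 0.483), and Fdps, an enzyme of cholesterol synthesis, read 5.42, 5.70 and 5.73 at 8 h and 5.96, 5.99 and 6.06 at 14 d (0.39, adjusted p = 0.119). Neither overlapped, and neither passed the test.

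**Figure D4:**
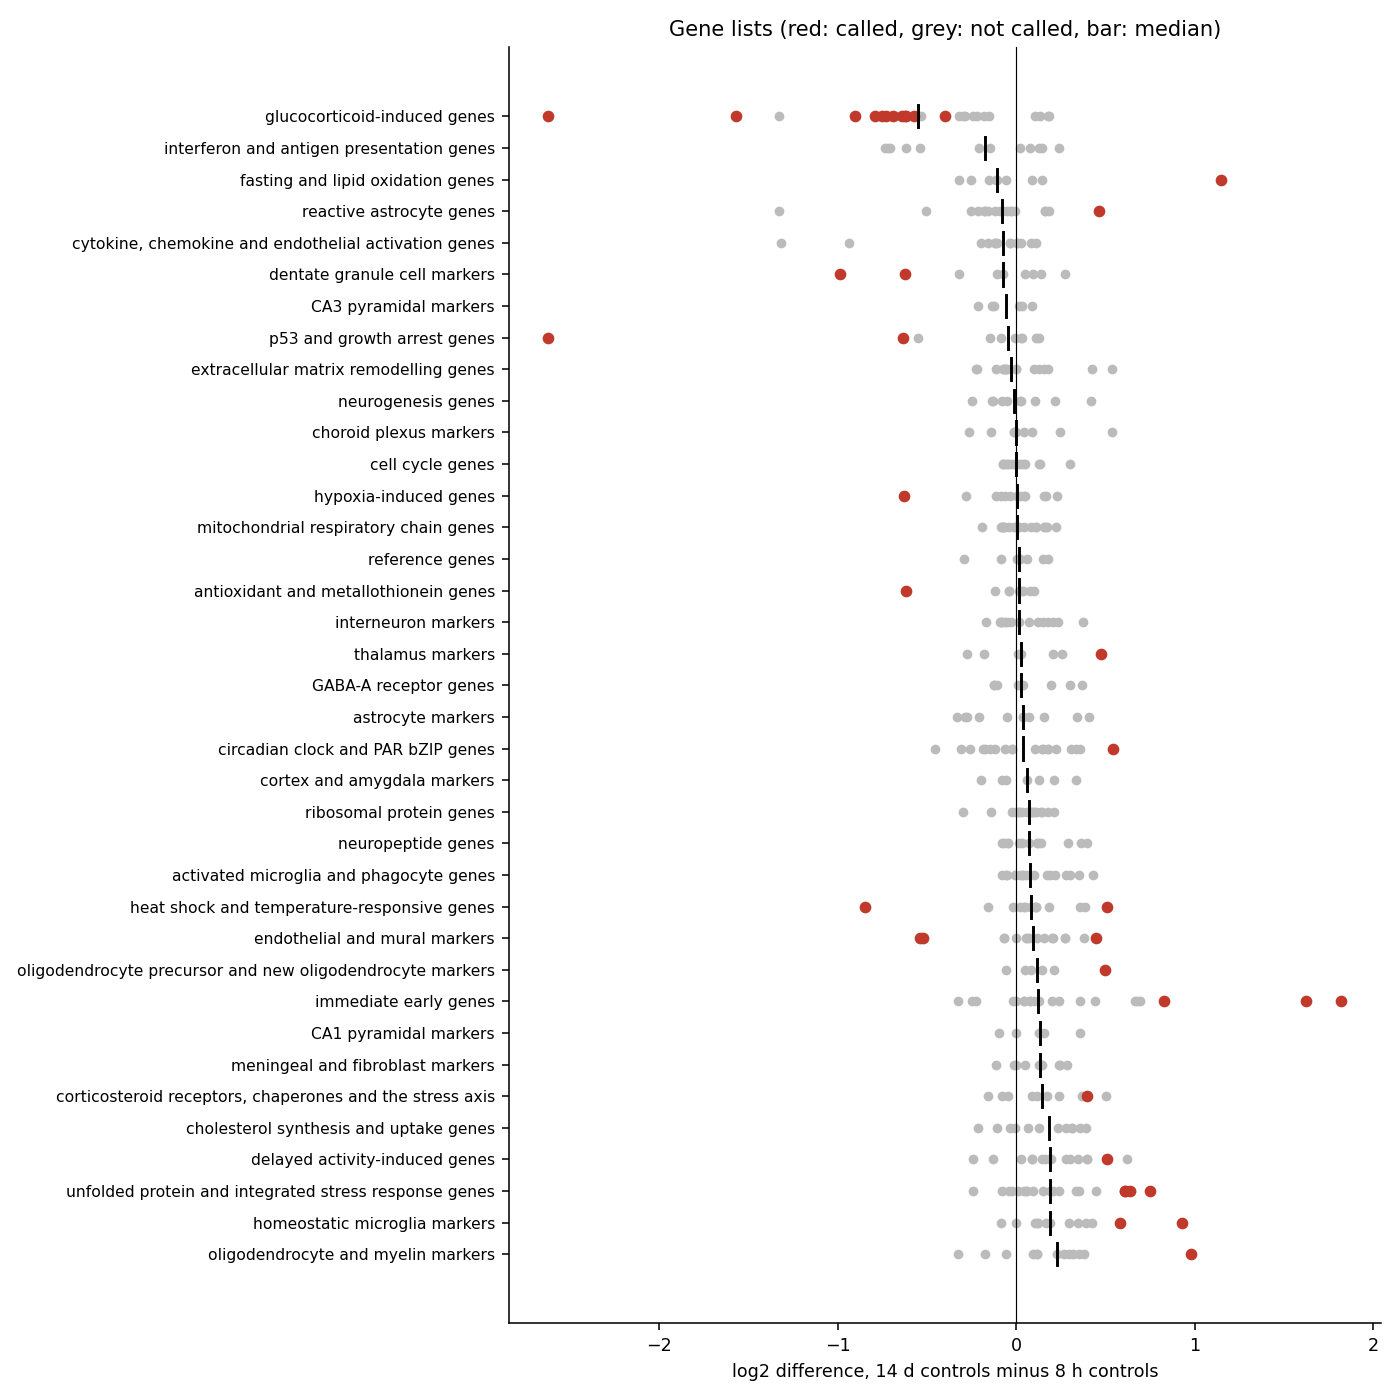
Log2 difference, 14 d minus 8 h controls, of each member of the gene lists with at least 5 members tested, ordered by the list median (bar). Red points were called and grey points were not. Glucocorticoid-induced genes lie lowest, at a median of -0.55, and the medians of the others lie between -0.18 and 0.23.

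The same time difference was measured in the KA arrays, which share no array with the controls. There 2546 genes were called (18.4%), of which 1000 were higher at 8 h (7.22%) and 1546 higher at 14 d (11.2%). On the KA arrays titled as 8 h, Xist, the RNA of the inactive X chromosome, read 7.39 to 8.71, against 4.34 to 4.61 on the 8 h controls and 4.19 to 4.67 on the KA arrays at 14 d. Of 4 sex-linked genes tested, 1 was called higher at 8 h and 2 higher at 14 d in KA arrays, and 0 either way in controls. Sex is not in the labels, and if it differed between the KA groups it cannot be told apart from time there. The part of these differences, and of the later time entries of those arrays, in the KA values was not tested. Of the 94 genes higher at 8 h in controls, 44 were called in the same direction in KA arrays (46.8% of the control calls and 4.4% of the KA calls), 3 in the opposite one and 47 not. Of the 155 higher at 14 d, 81 were called in the same direction (52.3% and 5.24%), 8 in the opposite one and 66 not. The difference between the time differences was called for 27 of the 94 and 37 of the 155, beside 5.52% of all genes. These genes were chosen by their control difference, which is part of the value tested. Their shares therefore cannot be read against that of all genes.

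Glucocorticoid-induced genes differed with time in the KA arrays too. Of the 26, 19 were called higher at 8 h there and 0 higher at 14 d, against 7.22% and 11.2% of all genes. Their median was -0.58, against 0.04 over all genes. Cdkn1a read 10.23, 10.04 and 10.33 at 8 h and 7.70, 7.36 and 7.88 at 14 d in the KA arrays, a difference of -2.55 beside -2.62 in controls, and the difference between the 2 was 0.07 ± 0.20 (SE, adjusted p = 0.92). Fkbp5 differed by -0.86 beside -0.91, and Sgk1 by -1.88 beside -1.57. For both, the difference between KA arrays and controls was not called (adjusted p = 0.943 and 0.656). Errfi1 (-2.10 beside -0.53), Map3k6 (-1.28 beside -0.64), Dusp1 (-1.87 beside 0.18), Bcl6 (-0.99 beside 0.19) and Per1 (-0.73 beside 0.11) were further toward 8 h in the KA arrays, with the difference called for each (adjusted p = 0.000935, 0.0322, 0.000172, 2.72e-05 and 0.003).

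Many activity-induced genes were higher at 8 h in the KA arrays, while in controls few were called, and those at 14 d. In the KA arrays 17 of 22 immediate early genes and 14 of 17 delayed ones were called higher at 8 h and 0 higher at 14 d. Of all genes, 7.22% and 11.2% were called in these directions there. Arc read 9.26, 9.31 and 9.59 at 8 h and 7.63, 7.67 and 8.84 at 14 d in the KA arrays, so that all 8 h arrays were higher, while in controls all 14 d arrays were. Its time difference was -1.34 in KA arrays and 1.82 in controls (difference -3.16, adjusted p = 3e-05). The 8 genes higher at 14 d in controls and higher at 8 h in KA arrays were Arc, Egr1 (-0.76 in KA arrays), Nr4a2 (-1.63), Pcsk1 (-1.70), Spry4 (-0.67), S100a10 (-0.36), Tyro3 (-0.31) and Cdk2ap1 (-0.39). The control call of Cdk2ap1 ended without any 1 of the 6 control arrays (adjusted p up to 0.133). The 3 with the opposite pattern were Zkscan16 (-0.67 in controls and 0.43 in KA arrays), Tns3 (-0.35 and 0.31) and Adk, the kinase that clears adenosine (-0.35 and 0.34). The control calls of Tns3 and Adk ended without any 1 of the 6 control arrays and with the mean of their probe sets (adjusted p up to 0.285 and 0.838 over all settings), and that of Adk also with quantile normalization. In Adk the control difference turned to 0.07 with probe sets of the x_at and s_at kinds left out.

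Microglia markers were higher at 14 d in KA arrays too. P2ry12 was higher at 14 d by 2.58 in KA arrays and 0.58 in controls (difference 1.997, adjusted p = 8.33e-06), and Cx3cr1 by 1.77 and 0.93 (0.84, adjusted p = 0.00975). Of the 13 markers, 12 were called higher at 14 d in KA arrays, against 11.2% of all genes. Ugt8a and Fabp7 differed by 1.09 and 1.001 in KA arrays, beside 0.98 and 1.15 in controls, and the difference between KA arrays and controls was called for neither (adjusted p = 0.829 and 0.753). For Dsp, in contrast, the KA difference was 0.27 beside -0.99 in controls (adjusted p of the difference = 0.00485), and for Cirbp -0.19 beside -0.85 (adjusted p = 0.00855).

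**Figure D5:**
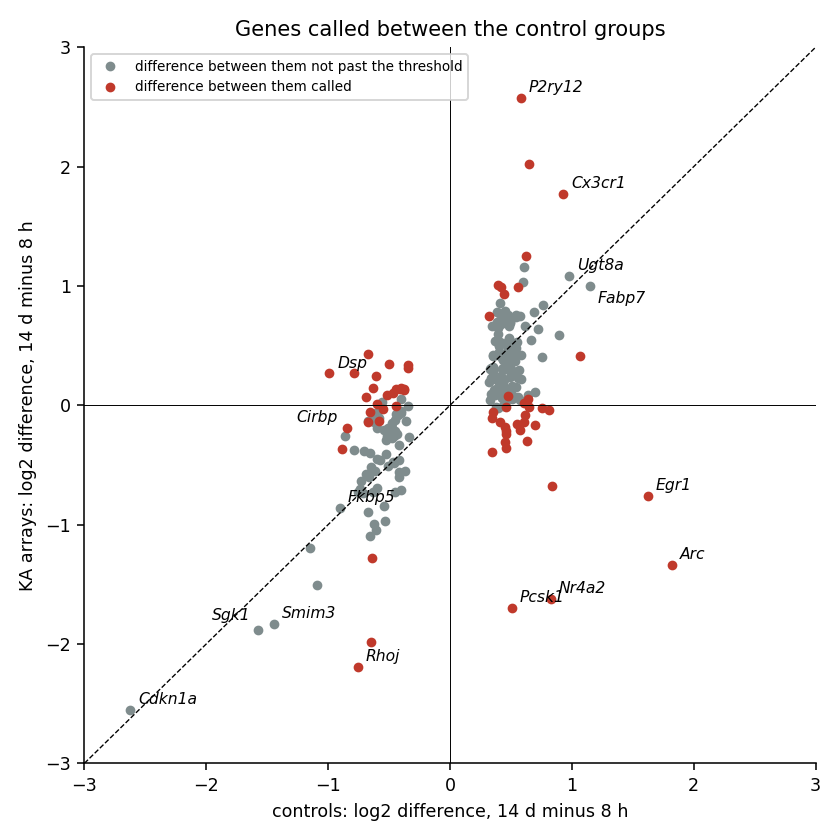
Log2 difference, 14 d minus 8 h, in KA arrays (y axis) against that in controls (x axis) for the 249 genes called between the control groups, with the line of equal differences dashed. Red points are the genes whose difference between KA arrays and controls was called. Cdkn1a, Sgk1 and Fkbp5 lie near the line, and Arc, Egr1, Nr4a2 and Pcsk1 lie above 0 in controls and below 0 in KA arrays.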

How the data were processed

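Hippocampal RNA (5 ng) went through 22 cycles of amplification, per the labels, which name 8 µg of cDNA for labelling. The authors deposited log2 intensities; the submitters' processing notes name RMA and affy, with no version or role. The table does not state its scale, which was taken from the range of its values.

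Groups came from the titles. Of 45141 probe sets, 104 were controls, 28898 carried 1 symbol, 551 several and 15588 none. Symbols of 28689 probe sets were matched by gene identifier to GRCm38.p6, which served for names and promoters. Each of 17097 genes was read from its brightest probe set (6673 of the genes tested had several), and kept when above the 30th percentile of an array on at least 3 arrays, which left 13853.

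The model, in limma 3.58.1 under R 4.3.3, had 1 mean for each of the 4 groups over all 12 arrays, leaving 8 residual degrees of freedom, with eBayes. Tests were two-sided, adjusted by Benjamini-Hochberg over all genes tested. A gene was called at an adjusted p under 0.05. The fit was tested on simulated data. Lists were described by counts and medians and not tested as sets. Genes were named by size (the 12 largest each way without overlap between groups), by list (up to 4 called members, or 2 where none was called) and from a short list named whatever their result, and some were left out of the text. Others were chosen after their values were seen. The members, lists and rules were chosen with earlier results of these data known. Same-numbered arrays were checked for pairing and treated as unpaired. Alternatives covered the filter, normalization, probe set, samples, weights, eBayes setting, block, threshold and left-out arrays. With 3 arrays per group, precision is limited by their number.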

Additional observations from a re-analysis of the deposited data

Results flagged for a closer look

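The time difference of the KA arrays, minus that of the controls, passed the limma test (adjusted p under 0.05) for the following named genes, in log2. Among genes called between the control groups, the value was below 0 for these: Pcsk1 -2.20, Nr4a2 -2.46, Spry4 -1.51, Arc -3.16, Rhoj -1.44, Egr1 -2.38, Cdk2ap1 -0.73, S100a10 -0.82, Tyro3 -0.76, Zmym1 -0.85, Fgfr2 -0.67, Litaf -0.59, Sdf2l1 -0.75, Serpinh1 -0.65, Pdia6 -0.59, Map3k6 -0.64 and Creld2 -0.78. It was above 0 for these: P2ry12 1.997, Zkscan16 1.10, Adk 0.68, Tns3 0.66, Dsp 1.26, Cirbp 0.66, Prkd1 1.06, Cx3cr1 0.84, Trp53inp1 0.78, Vtn 0.48, Mertk 0.61 and Rhou 0.52.

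Among named genes that were not called between the control groups, the value was below 0 for these: Bcl6 -1.17, Nr4a3 -2.20, Dusp1 -2.04, Errfi1 -1.57, Fos -4.13, Xbp1 -1.30, Bdnf -1.71, Per1 -0.84, Nr4a1 -1.92, Npas4 -2.08 and Hspa5 -1.24. It was above 0 for these: Aif1 1.02, Fcrls 0.70, Trim30d 2.35, Ifit3 1.59, Per3 0.62, Gfap 0.73 and Dbp 0.74. In the controls Npas4 lay above background on 0 of 6 arrays, Fos on 1 of 3 at 8 h and 3 of 3 at 14 d, Trim30d on 2 of 3 at 8 h and 0 of 3 at 14 d, and Zmym1 on 2 of 3 at 8 h and 3 of 3 at 14 d, so that their values rest in part on signals at background. Trim30d and Ifit3 are genes in which 1 of the 8 h control arrays stood apart from the other 5. The values of all these genes rest on the KA arrays at 8 h, on which Xist was 7.39 to 8.71 (log2), and its part in them was not tested.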

How the results depend on the processing

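In place of the 249 genes called between the control groups, 543 were called with the 6 control arrays fitted alone, 1336 with array weights, 64 at an adjusted p under 0.01 and 445 with all probe sets tested, and 86 to 180 without any 1 of the control arrays. Without the third array of each group 230 were called, 148 of them shared with the 249. Of the genes named, Map3k6, Hif3a, Stip1, S100a10, Sox10, Per2, Cdk2ap1, Tns3 and Adk lost their call in that fit. Between the KA groups 1665 were called when fitted alone, 4242 with array weights, 1417 at an adjusted p under 0.01, 4903 with all probe sets and 1779 to 2573 without any 1 array. For the difference between KA arrays and controls the counts were 2168 with array weights, 346 at an adjusted p under 0.01, 1478 with all probe sets and 508 to 902 without any 1 array. Glucocorticoid-induced genes called higher at 8 h numbered 7 to 11 without any 1 control array and 10 to 18 under the other alternatives with the threshold kept.

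Same-numbered control arrays deviated from their group means with correlations of 0.163, 0.0363 and 0.401, not all above 0.1, so the numbers were not taken to pair the samples. With the replicate number as a block, 570 genes were called between the control groups, all 249 among them, and 1214 for the difference between KA arrays and controls. In that fit 5 immediate early genes, in place of 3, were called higher at 14 d.

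Genes of the unfolded protein response called higher at 14 d, and immediate early genes called higher at 14 d, numbered 7 and 7 with the control arrays fitted alone and 9 and 7 with array weights. At an adjusted p under 0.01 they numbered 1 and 2, and without any 1 control array 1 to 3 and 2 to 3.

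The sign of some differences turned, all but the last of them uncalled. Gja1, at 0.341 in the main fit, was at -0.0487 and Bcl6 at -0.0543 with the mean of all probe sets. The other probe sets of Gja1 differed by -0.06, -0.20, -0.07 and -0.25. Bdnf was at -0.000154 with cyclic loess and -0.0685 without the third arrays, but at 0.225 with the mean of all probe sets, and Arntl at 0.0929 with array weights and 0.128 without the third arrays. Without any 1 control array the range was -0.0315 to 0.0939 for Bdnf, -0.109 to 0.0818 for Arntl, -0.185 to 0.0950 for Dbp, -0.0794 to 0.0326 for Nr1d2, -0.118 to 0.0101 for S100a9, -0.527 to 0.147 for Gbp7 and -0.491 to 0.145 for Igtp. Adk, which was called, was at 0.0745 when probe sets of the x_at and s_at kinds were dropped. The cause was not tested.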
